A study of Mus musculus with 19 samples.

Results

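The adult globin genes and Alas2, the gene of the heme enzyme of red cell precursors, were followed in cortex RNA-seq libraries of APP23 mice on a high fat diet (HFD) or a normal diet (ND). They were taken by symbol from a list of 5 genes, Hba-a1, Hba-a2, Hbb-bs, Hbb-bt and Alas2, and 4 of the 5 could be read among the 14996 genes of the table. Hbb-bt was not analysed here. The table also has a beta globin row under the older symbol Hbb-b1, which is not on the list. It was added after the list was fixed and is given beside the others, because the sources used here do not say which of the neighbouring beta globin genes it counts. The libraries came from 19 APP23 mice hemizygous for a human APP751 transgene with the Swedish familial Alzheimer's disease mutation, on a C57Bl6 background, so the ND controls carry the transgene too. Of the females 6 were on ND and 5 on HFD, of the males 4 on each diet, with a library for each mouse. Diets began at a mean age of 11.7 months, and the mice were fed for 3 months. HFD drew 40% of its calories from milk fat and corn oil, and ND was a standard chow. The mice were perfused with cold buffer before the cortex of the hemisphere not kept for histology was frozen, and the labels name the tissue as brain. The comparisons ask whether these transcripts differ between the diets, in which mice they are high, and whether they vary together.

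Hemoglobin, the oxygen carrier of the red cell, is built from alpha and beta chains, each holding a heme group. Hba-a1 and Hba-a2 code for the adult alpha chains, Hbb-bs for an adult beta chain, and Alas2 for the aminolevulinate synthase that starts heme synthesis in erythroid cells. Their transcripts are very abundant in red cell precursors and persist in reticulocytes, the youngest circulating red cells, so in tissue they are commonly read as a sign of blood, although low globin expression in neurons and glia has also been described. In bulk tissue, fewer cells of a type and less RNA per cell cannot be told apart.

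The 250 bases before the start sites of Hba-a1, Hbb-bs and Alas2 are shown as a description, read from RefSeq promoters on build GRCm38.p6. Their part in the variation of the members between mice was not tested. Reads were counted on build mm9, so these positions are not those of the count table. Capitals mark 4 short words on either strand, GATAA of the erythroid GATA factors, CACCC of the Krüppel-like factors, CCAAT of the CCAAT factors and TATAA of the basal machinery. The window of Hba-a1 lies at chr11:32283422-32283671 on the plus strand, that of Hbb-bs at chr7:103827929-103828178 on the minus strand, and that of Alas2 at chrX:150547167-150547416 on the plus strand.
Hba-a1: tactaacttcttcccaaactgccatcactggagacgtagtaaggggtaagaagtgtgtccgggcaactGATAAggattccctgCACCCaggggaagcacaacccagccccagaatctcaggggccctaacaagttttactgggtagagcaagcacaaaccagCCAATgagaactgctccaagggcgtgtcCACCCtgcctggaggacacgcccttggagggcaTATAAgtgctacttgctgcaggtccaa
Hbb-bs: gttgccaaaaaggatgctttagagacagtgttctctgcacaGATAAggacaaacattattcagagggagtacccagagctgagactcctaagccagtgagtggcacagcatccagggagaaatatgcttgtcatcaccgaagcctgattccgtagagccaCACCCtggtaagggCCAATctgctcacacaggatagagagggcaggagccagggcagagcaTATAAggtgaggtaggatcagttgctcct
Alas2: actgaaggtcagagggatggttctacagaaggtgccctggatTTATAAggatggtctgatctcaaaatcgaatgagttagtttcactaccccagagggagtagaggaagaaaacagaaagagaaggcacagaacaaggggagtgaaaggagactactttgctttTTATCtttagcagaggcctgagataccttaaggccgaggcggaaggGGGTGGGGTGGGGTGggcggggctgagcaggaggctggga
Both globin windows hold all 4 words on the strand of the gene. TATAA begins 27 bases before the start site of Hba-a1 and 29 before that of Hbb-bs, and CCAAT 88 and 76 bases before them. The window of Alas2 holds GATAA on the opposite strand, 3 copies of CACCC on the opposite strand and an overlapping TATAA pair at 208 and 207 bases, but no CCAAT. The words are common in themselves. Over 27025 promoter windows of the same length, GATAA was found in 23.0%, CACCC in 51.3%, CCAAT in 34.5% and TATAA in 23.5%. The Hba-a2 window at chr11:32296242-32296491 shares an unbroken run of 247 bases with that of Hba-a1, the same sequence displaced by 3 bases in the annotation. The transcripts are alike in part, with an identity of 75.1% for Hba-a1 with Hba-a2 and 82.3% for Hbb-bs with Hbb-bt. Their annotated lengths differ, at 699 and 554 bases for the alpha pair and 628 and 703 for the beta pair. The part of length in these identities was not tested. Hba-a1 and Hba-a2 share an unbroken run of 415 bases, and 67.5% of the 50-base windows of Hba-a1 are also found in Hba-a2. The split of reads between Hba-a1 and Hba-a2 is therefore uncertain, since neither the read length nor the treatment of reads with several matches is given in the sources used here. Hbb-bs and Hbb-bt share a run of 430 bases and 65.8% of such windows, so the beta rows carry the same uncertainty.

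Library totals ran from 11727151 to 17178044 reads in females and from 9308206 to 10844280 in males. Within the groups no library was a copy of another, as the 37 same-group pairs had a chi-square per degree of freedom of 4.51 or more. Pairs across groups were not checked. All 10 cortical neuron markers were measured, with a mean log2 CPM (scaled counts on a log2 scale) of 7.84 to 8.27 in the libraries. Some of them are made by neurons of other regions too, and no other region was compared, so the dissection was not tested. At these depths the members were low. Together the 4 members drew 3161 reads over all 19 libraries, and 73.3% of them came from 4 libraries, HFD females F1063, F1076 and F1252 and HFD male F1065. HFD libraries held 82.5% of them.

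The summed level of the members spanned a 90.6-fold range, from 0.767 RPM (reads per library, scaled to the same total) in ND female F1073 to 69.6 RPM in HFD female F1063. Counting error allows 0.351 to 1.46 RPM in the first and 65.2 to 74.1 in the second (exact binomial, 95%), so the range is far wider than counting error. The sum was 0.767, 2.26 and 7.34 RPM (lowest, median and highest) in ND females and 3.88, 23.0 and 69.6 in HFD females. It was 2.87, 3.36 and 15.9 RPM in ND males and 3.14, 5.53 and 29.3 in HFD males. Every group had mice at a few RPM, and every group but the ND females had a mouse above 15 RPM.

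Hba-a1 stood at 0.341, 1.07 and 3.14 RPM (lowest, median and highest) in the 6 ND females. In the 5 HFD females it was 35.3 RPM in F1063, 24.0 in F1076, 8.56 in F1252, 2.95 in F1100 and 1.01 in F1094. Thus 3 of 5 HFD females lay above every ND female, while F1094 lay below the ND median. The ND males had 1.49, 7.18, 1.75 and 1.397 RPM, with the high value in F1080. The HFD males had 1.48, 12.1, 1.27 and 2.74 RPM, with the high value in F1065. In both male groups a single mouse stood above the rest and the diets overlapped.

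Hba-a2, the second adult alpha chain gene, was at 0.0853, 0.787 and 1.86 RPM in ND females. HFD females F1063, F1076, F1252, F1100 and F1094 had 24.3, 7.88, 6.32, 1.67 and 1.32 RPM. The same 3 mice were above every ND female, and F1063 stood well above the next mouse. ND males had 0.495, 4.92, 0.877 and 0.537 RPM and HFD males 0.922, 8.93, 1.17 and 1.96 RPM, again with F1080 and F1065 high.

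Hbb-bs, the beta chain gene, had no read in ND female F1073, which allows up to 0.315 RPM, and a median of 0.252 and a highest value of 1.16 RPM among ND females. HFD females F1063, F1076, F1252, F1100 and F1094 had 5.28, 12.6, 6.26, 0.898 and 0.854 RPM. The order of the high mice differs from that of the alpha chains, with F1076 above F1063. ND males had 0.396, 2.77, 0.779 and 0.430 RPM, and HFD males 0.277, 5.24, 0.293 and 2.06 RPM.

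Alas2 had no read in ND female A1092, which allows up to 0.224 RPM, and a median of 0.342 and a highest value of 1.16 RPM in ND females. HFD females F1063, F1076, F1252, F1100 and F1094 had 4.78, 4.29, 1.85, 0.642 and 0.699 RPM. ND males had 0.495, 1.03, 0.292 and 0.645 RPM, and HFD males 0.461, 3.01, 0.683 and 0.882 RPM. The 3 HFD females and the HFD male that led the globins led Alas2 too, whereas ND male F1080 was at 1.03 RPM, under the highest ND female.

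**Figure D1:**
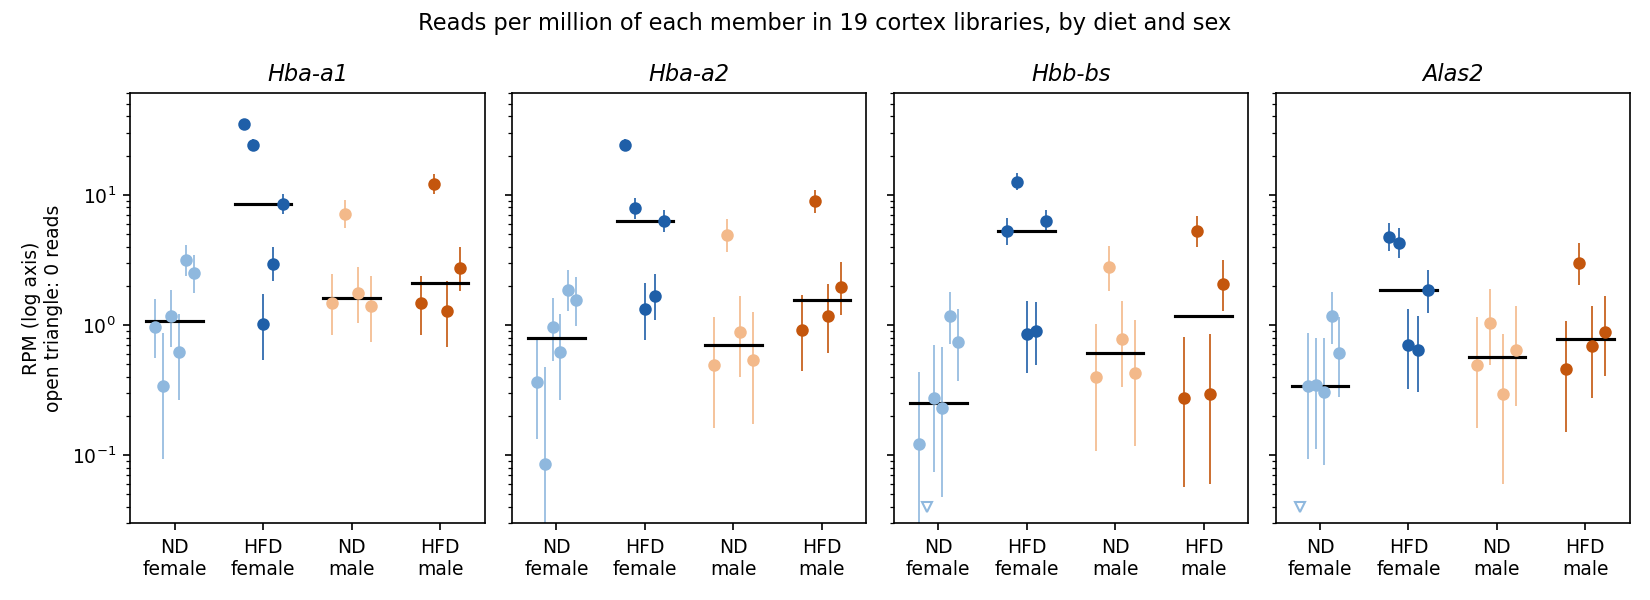
RPM of Hba-a1, Hba-a2, Hbb-bs and Alas2 on a log axis, 1 point per mouse, for the 19 mice by diet and sex. Black bars are group medians, thin lines are 95% exact binomial intervals of the count (cut off at the lower edge of the axis), and open triangles mark 0 reads. Hba-a1 reaches 35.3 RPM in an HFD female and does not pass 3.14 RPM in ND females, and the diets overlap in every panel.

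In females, all 4 members were higher on HFD at an unadjusted p under 0.05, where 3.92% of the 14756 genes tested were higher at that level. The members varied together over the 19 mice (Pearson r of 0.883 to 0.959 between pairs), so they do not count as 4 separate results. The log2 fold change was 3.24 (SE 0.79) for Hba-a1, 3.13 (SE 0.76) for Hba-a2, 3.51 (SE 0.79) for Hbb-bs and 2.35 (SE 0.67) for Alas2. Hbb-bs had the largest log2 fold change of all genes tested in females, and Hba-a1 ranked 4, Hba-a2 5 and Alas2 8. By p they ranked 25 to 151, as their spread between mice was large. None passed an adjusted p of 0.05 with the quasi-likelihood test of edgeR (adjusted p = 0.382 for the 3 globins and 0.404 for Alas2), and 0% of all genes did. With limma-voom their adjusted p was 0.458 to 0.585. With DESeq2, which called 16 genes higher and 32 lower in females, Hba-a1 (adjusted p = 0.041), Hbb-bs (0.041) and Hba-a2 (0.048) passed and Alas2 did not (0.0759). Hbb-b1 had a log2 fold change of 3.12 (SE 0.83, adjusted p = 0.386). No member separated the diets, since F1094 and F1100 lay within the ND range for all 4, whereas 0.264% of genes had every HFD female above every ND female. An exact permutation test of the diet labels on the mean log2 CPM, two-sided and added after the data were seen, gave p = 0.0281 for Hba-a1, 0.0152 for Hba-a2, 0.013 for Hbb-bs and 0.0152 for Alas2, where 0.00216 is the smallest it can give.

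In males, 0 of the 2 members tested were higher at an unadjusted p under 0.05, beside 4.2% of the 14293 genes. Hba-a1 had a log2 fold change of 0.62 (SE 0.94, adjusted p = 0.869) and Hba-a2 of 0.96 (SE 1.04, adjusted p = 0.808), with intervals of -1.23 to 2.47 and of -1.08 to 3.01. Both intervals hold 0, and neither reaches the fitted value in females. The female intervals, 1.69 to 4.80 for Hba-a1 and 1.64 to 4.62 for Hba-a2, overlap them. With edgeR 0% of all genes passed an adjusted p of 0.05 in males (601 were higher and 601 lower unadjusted, DESeq2 called 3 higher and 2 lower, and limma-voom 0). Hbb-bs and Alas2 were too low in males to pass the filter on counts. Without the filter their log2 fold changes were 0.87 (SE 1.03, adjusted p = 0.833) and 1.06 (SE 0.64, adjusted p = 0.656). The exact permutation p in males was 0.371 to 0.829 for the 4 members, with 0.0286 the smallest possible. The diets overlapped for both members tested, where 1.53% of genes had every HFD male above every ND male.

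With both sexes in a model with a term for sex, all 4 members were higher on HFD at an unadjusted p under 0.05, beside 5.44% of 14834 genes. Here too the members do not count as 4 separate results. The log2 fold changes were 2.27 (SE 0.71) for Hba-a1, 2.32 (SE 0.70) for Hba-a2, 2.50 (SE 0.72) for Hbb-bs and 1.92 (SE 0.53) for Alas2. Hbb-bs again had the largest value of all genes, Hba-a2 ranked 3, Hba-a1 4 and Alas2 10. Adjusted p-values were 0.16 to 0.204 with edgeR, where 0% of genes passed 0.05 (807 higher and 1037 lower unadjusted). DESeq2 called 62 higher and 62 lower, Alas2 among them (adjusted p = 0.0371), and limma-voom 0. The libraries of the separate fits enter this fit again, so its result is not independent of them.

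The fitted response to diet in females minus that in males was 2.63 (SE 1.38) on the log2 scale for Hba-a1, 2.17 (SE 1.42) for Hba-a2, 2.64 (SE 1.47) for Hbb-bs and 1.29 (SE 1.14) for Alas2, but none passed (edgeR adjusted p of 0.903 to 0.92). The count was 0 of 4 at an unadjusted p under 0.05, beside 2.38% of 14934 genes. A difference between the sexes in the response of these transcripts was therefore not shown by the main test. Across diets, females and males differed by log2 values of 0.51 to 0.65 with SE of 0.55 to 0.75 (adjusted p of 0.598 to 0.713). Here too 0 of 4 members were higher in females, beside 14.1% of the 14834 genes tested.

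**Figure D2:**
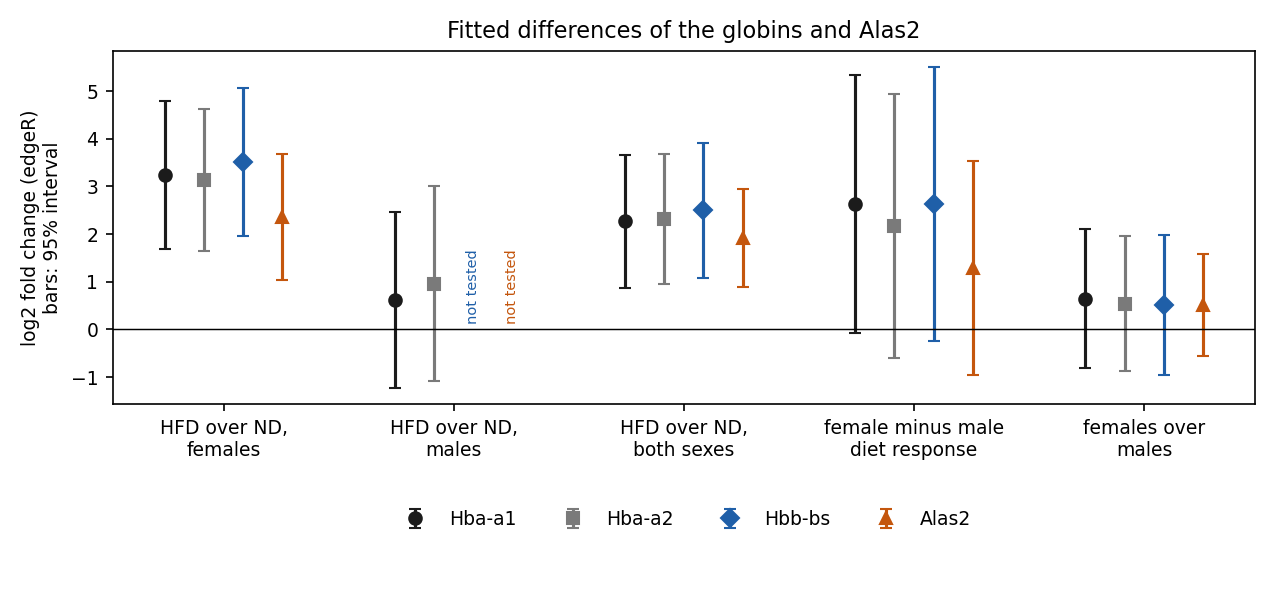
Log2 fold change of Hba-a1, Hba-a2, Hbb-bs and Alas2 in 5 comparisons fitted with edgeR, with bars for the 95% interval. The values in females and in both sexes lie above 0 (1.92 to 3.51), those of the other 3 comparisons have bars that cross 0, and Hbb-bs and Alas2 were not tested in males.

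Leaving out each mouse in turn showed how far single animals set these values, except that Alas2 did not pass the filter on counts without ND female F1104. In females the log2 fold change of Hba-a1 stayed between 2.60 and 3.63, of Hba-a2 between 2.20 and 3.48, of Hbb-bs between 2.88 and 4.16 and of Alas2 between 1.97 and 2.61. The unadjusted p stayed under 0.05 in every case tested, with adjusted p of 0.187 to 0.713, and the lowest values came without F1063 or F1076. In males the sign rested on a single animal. Without HFD male F1065 the log2 fold change was -0.67 (adjusted p = 0.957) for Hba-a1 and -0.32 (adjusted p = 0.983) for Hba-a2, and without ND male F1080 it was 1.55 and 2.37. The interaction moved with the same mouse. Without F1065 it was 3.91 for Hba-a1, 3.45 for Hba-a2 and 3.83 for Hbb-bs, each with an unadjusted p under 0.05, although the adjusted p was 1. For Hba-a1 it also had an unadjusted p under 0.05 without HFD female F1094 (2.92, adjusted p = 0.88) and without HFD female F1100 (2.89, adjusted p = 0.974), the 2 HFD females with low globins.

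**Figure D3:**
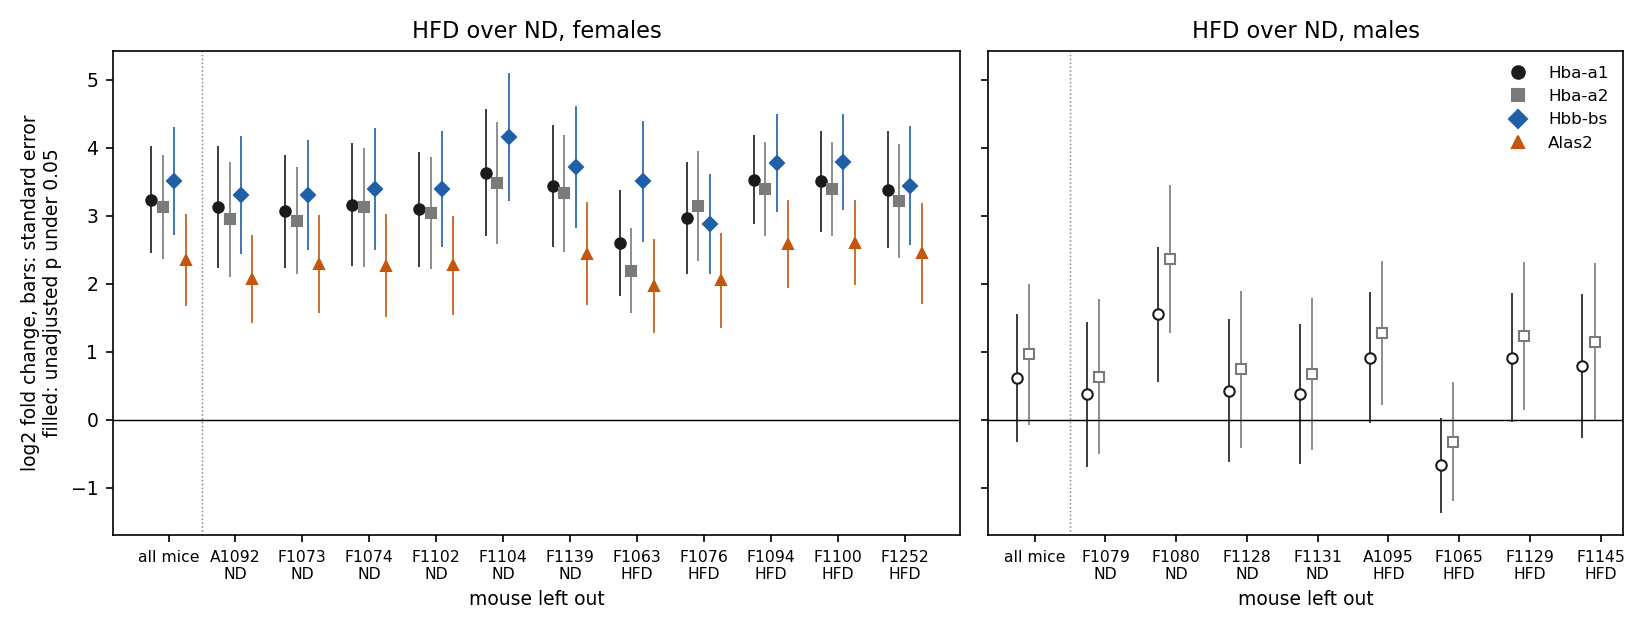
Log2 fold change of HFD over ND with its standard error, for all mice and with each mouse left out in turn, in females (left) and males (right), where filled symbols have an unadjusted p under 0.05. The female values stay filled and at or above 1.97, Alas2 has no value without F1104, and in males Hba-a1 goes from 0.62 to -0.67 when F1065 is left out.

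The spread of the members between mice of the same group was far above that of most genes. The biological coefficient of variation, which edgeR estimates beyond counting noise, was 98.1% for Hba-a1, 98.5% for Hba-a2, 107% for Hbb-bs and 72.7% for Alas2 in the fit of both sexes, against a median of 8.91% over all genes. Only 11 genes of that fit were as high as Hbb-bs or higher, and 37 as high as Alas2. In RPM the coefficient of variation within a group ran from 50.4% (Alas2 in ND males) to 126% (Hba-a2 in ND males), while the median gene stood at 9.80% to 10.5% in the 4 groups. The ND groups were among the variable ones, with 76.6% for Hba-a1 in ND females and 95.5% in ND males. For the sparsest values a part of this spread is counting error, as the members drew between 0 and 5 reads in many ND libraries.

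The members varied together. Over the 19 mice the log2 CPM of Hba-a1 had a Pearson r of 0.959 with Hba-a2, 0.938 with Hbb-bs and 0.888 with Alas2, and Spearman rho was 0.889, 0.918 and 0.816. Alas2, which shares no close sequence with the globins, had r of 0.890 with Hba-a2 and 0.883 with Hbb-bs. With Hbb-b1 included, r over the 10 pairs was 0.858 to 0.971, and the permutation p was 1e-05, the smallest that 100000 permutations can give, for 9 of the pairs and 3e-05 for Alas2 with Hbb-b1, with the same values after Benjamini-Hochberg adjustment over the 10 pairs. On deposited RPM, r of Hba-a2 with Hbb-bs was 0.605 (permutation p = 0.0521), against 0.928 on log2 CPM. Within females r was 0.851 to 0.980 and within males 0.805 to 0.964. After the group means were removed, r was 0.829 for Hba-a1 with Alas2 and 0.945 with Hba-a2, so the shared variation was also present between mice of the same diet and sex. Without F1063 and F1076, the 2 mice farthest from the median of Hba-a1, r was 0.944 with Hba-a2, 0.940 with Hbb-bs and 0.788 with Alas2. In males alone the ranks were less ordered, with a rho of 0.524 (permutation p = 0.197) for Hba-a1 with Alas2.

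**Figure D4:**
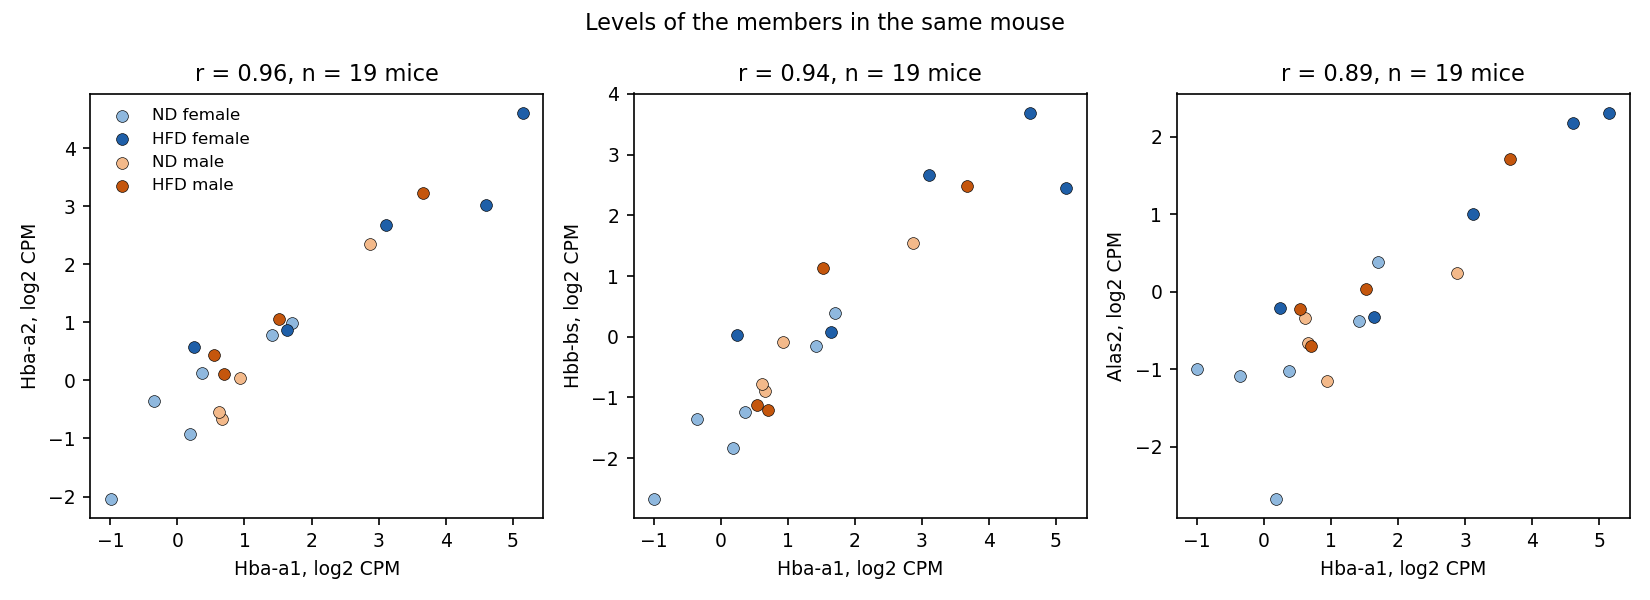
Log2 CPM of Hba-a2, Hbb-bs and Alas2 against that of Hba-a1 in the same mouse, 1 point for each of 19 mice, coloured by diet and sex. The points rise together (r of 0.959, 0.938 and 0.888), and the mice at the upper right are HFD females F1063, F1076 and F1252, HFD male F1065 and ND male F1080.

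Although the levels moved together, the mix of chains was not the same in every library. The shares below are of reads, not corrected for transcript length, and are given for the 7 libraries with 50 or more beta globin reads. Hbb-bs made up 18.1% of the reads on Hbb-bs and Hbb-b1 in HFD female F1063 (14.5 to 22.2, exact binomial 95%), against 44.9% (39.9 to 49.9) in HFD female F1076 and 49.0% (41.9 to 56.2) in HFD female F1252. HFD male F1065 had 35.1%, ND male F1080 36%, HFD male F1145 39.6% and ND female F1104 29.0%. The interval of F1063 lies below those of F1076, F1252, F1065, F1080 and F1145. For the alpha chains, Hba-a2 made up 24.7% (20.8 to 29.0) of the alpha reads in F1076 and 37.2% to 42.5% in the other libraries. Alpha reads were 0.906 to 2.04 times the beta reads, with the highest ratio in F1063. Alas2 made up 4.93% to 11.4% of the reads on all 5 rows, and here the intervals of most libraries overlap. The intervals cover counting error only. Reads from stretches that the copies share can fall on either gene, and the part of that assignment, or of alleles that differ between mice, was not tested.

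**Figure D5:**
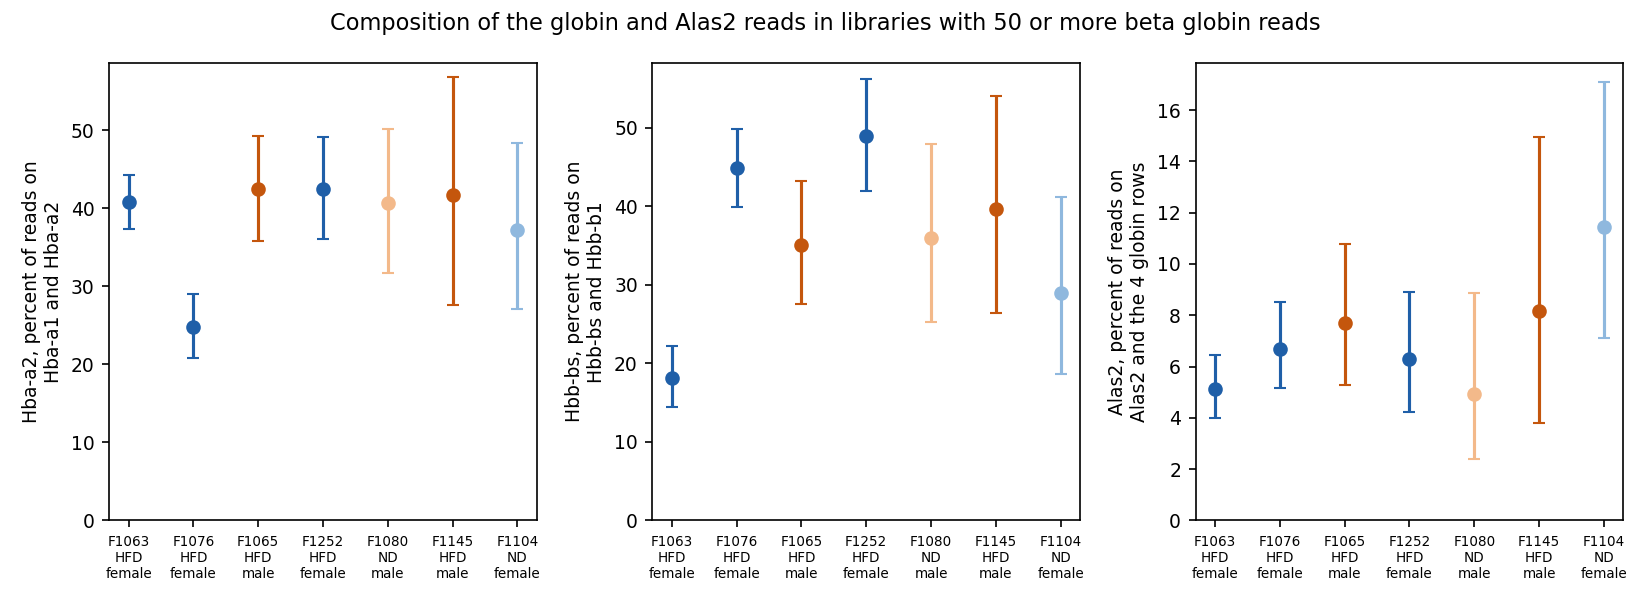
Percent of alpha globin reads on Hba-a2 (left), of beta globin reads on Hbb-bs (middle) and of all globin and Alas2 reads on Alas2 (right), in the 7 libraries with 50 or more beta globin reads, with exact binomial 95% intervals. F1076 stands apart at 24.7% in the left panel and F1063 at 18.1% in the middle one.

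Other globins and genes of heme synthesis gave mixed results, with no list moving as a whole. For scale, 807 of the 14834 genes tested were higher and 1037 lower on HFD in both sexes (unadjusted p under 0.05). Beside Hbb-b1, the other measured genes of the globin list included Ngb, neuroglobin of neurons, which was lower on HFD in both sexes together (log2 fold change -1.02, SE 0.32, adjusted p = 0.202) and had a median of 5.01 RPM in ND and 2.31 in HFD females and 5.44 in ND and 3.57 in HFD males. Of the 8 enzymes of heme synthesis other than Alas2, which most cells use, 1 was higher and 1 lower on HFD in both sexes (unadjusted p under 0.05), and their median difference was 0.03 on the log2 scale against 0.00 over all genes. Alad, aminolevulinate dehydratase, differed by 0.10 (SE 0.05, adjusted p = 0.386) and Uros, uroporphyrinogen III synthase, by -0.18 (SE 0.05, adjusted p = 0.15). Of 7 genes of mitochondrial import for erythroid heme, 0 were higher and 1, Abcb6, a porphyrin transporter, was lower (-0.12, SE 0.05, adjusted p = 0.374). Without F1063, as with DESeq2, neither Alad nor Abcb6 was counted, and Alad was not counted with limma-voom. The mean log2 CPM of the heme enzymes had an r of 0.246 with Hba-a1 over the 19 mice (permutation p = 0.312) that of the import genes of -0.058 (p = 0.812) and that of the other globins of -0.127 (p = 0.605).

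Of the list of 30 red cell membrane and reticulocyte genes, 18 could be analysed, and the defining gene Slc4a1 (an anion exchanger) was not among them. On HFD in both sexes together, 2 were higher and 2 lower (unadjusted p under 0.05), and the median log2 fold change was 0.02. Over all 14834 genes tested, 807 were higher and 1037 lower at that level, which also applies to the lists below. Fam46c, a poly(A) polymerase also made by plasma cells and induced by interferon, was higher by 0.90 (SE 0.16, adjusted p = 0.0525), the smallest adjusted p of all genes in that comparison. Its RPM was 1.85, 2.14 and 2.558 (lowest, median and highest) in ND females and 2.562, 3.80 and 5.05 in HFD females, with no overlap, and 0.694 to 1.93 in ND males and 1.86 to 2.72 in HFD males. Dmtn, the actin-bundling dematin, was higher by 0.10 (adjusted p = 0.38), while Tspan33, a tetraspanin of erythroid and B cells, was lower, at -0.32 (adjusted p = 0.131) and Prdx2, a peroxiredoxin abundant in red cells, at -0.07 (adjusted p = 0.297). The mean of the 18 genes had an r of 0.336 with Hba-a1 (permutation p = 0.16), which was 0.050 without F1063 and F1076. Of the measured genes in this list many, such as Dmtn at 305 to 412 RPM, are also made by brain cells, and the erythroid factors Gata1 and Klf1 were not analysed here. Among the 6 measured erythroid transcription factors and receptor, 0 were higher or lower on HFD, and r with Hba-a1 was 0.070 (permutation p = 0.776). Of 7 genes of heme and hemoglobin clearance, 1 was higher, Hmox1, the inducible heme oxygenase (0.22, SE 0.10, adjusted p = 0.396), and r with Hba-a1 was 0.056 (permutation p = 0.819). Of 11 genes of iron uptake, storage and export, 2 were higher and 1 lower, among them Fth1, the ferritin heavy chain (0.23, SE 0.07, adjusted p = 0.161), and Trf, transferrin (0.24, SE 0.10, adjusted p = 0.337). The r of that list with Hba-a1 was 0.413 (permutation p = 0.0789). Without F1063, 0 genes of heme clearance were higher and 0 of the iron list lower. With edgeR, none of the genes named from these lists passed an adjusted p of 0.05 for diet.

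Markers of other blood cells were read beside the members. Hba-a1, the member with the highest mean RPM, was set against the mean log2 CPM of 17 lists. The blood cell means rest on few measured genes. These were 6 for neutrophils, 2 for B and plasma cells, 3 for monocytes, 4 for platelets and 2 for T and NK cells. The neutrophil mean was also low, with group medians of -0.14 to 0.17 log2 CPM. Neutrophil markers had the highest r, 0.632 (permutation p = 0.00283, adjusted p = 0.0393), followed by B and plasma cell markers (0.621, adjusted p = 0.0393) and monocyte markers (0.591, adjusted p = 0.0437). The rank correlations were weaker, with rho of 0.521, 0.293 and 0.435 and adjusted p of 0.397, 0.957 and 0.546. Without F1063 and F1076, r was 0.523 (permutation p = 0.0302), 0.324 (permutation p = 0.207) and 0.352 (permutation p = 0.164). Without F1063 alone, r was 0.412 (permutation p = 0.089), 0.467 (permutation p = 0.0519) and 0.501 (permutation p = 0.0336). Without F1076 alone, r was 0.742 (permutation p = 0.00095), 0.572 (permutation p = 0.0143) and 0.513 (permutation p = 0.028). After the group means were removed, r was 0.615 (permutation p = 0.0035), 0.360 (permutation p = 0.131) and 0.429 (permutation p = 0.0662). The relations with B and plasma cells and with monocytes were therefore weaker without both mice, and between mice of the same diet and sex. That with neutrophils was weaker without F1063 alone. Within females r with the neutrophil list was 0.644 and within males 0.630 (permutation p = 0.0206 and 0.0947). Spearman rho with that list was 0.418 in females (permutation p = 0.203) and 0.738 in males (permutation p = 0.0458).

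F1063 was apart from other mice in more than the globins. S100a8, a calcium-binding protein of neutrophils, was at 25.0 RPM in F1063 and at most 2.16 RPM in every other library. Of the 12 neutrophil markers 6 were in the table and 3 were tested in both sexes, all 3 higher on HFD at an unadjusted p under 0.05 (S100a8 by 2.21, SE 0.95, adjusted p = 0.337, and Csf3r, a cytokine receptor also present in microglia, by 0.52, SE 0.15, adjusted p = 0.161), but 1 with DESeq2, with limma-voom, and without F1063 or any one of the ND females A1092, F1073, F1102 and F1104. The mean of the list was between -0.90 and 4.12 in log2 CPM in HFD females and between -0.87 and 0.57 in ND females. Of the B and plasma cell markers, the 2 measured, Ighm and Igkc, the heavy chain of IgM and the kappa light chain, were higher by 0.42 (SE 0.11, adjusted p = 0.143) and 1.29 (SE 0.46, adjusted p = 0.254), also without F1063. Lyz2, the lysozyme of monocytes, macrophages and microglia, was higher by 0.60 (SE 0.19, adjusted p = 0.209). It was the 1 higher of the 3 monocyte markers tested, whose median log2 fold change was 0.03. Fn1, fibronectin, of the same list was at -0.05 (SE 0.09, adjusted p = 0.866). Over all 14834 genes tested in both sexes, 5.44% were higher on HFD at an unadjusted p under 0.05. The members were higher without F1063 as well, 4 of 4 at an unadjusted p under 0.05, in a fit where 797 of all genes were. What part these cells have in the globin result was not tested.

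Markers of the vessel wall and of adjoining tissue showed no relation with Hba-a1 past the test. The r was -0.032 for 12 endothelial markers, -0.089 for 10 mural cell markers, -0.014 for 10 meningeal markers and 0.142 for 10 choroid plexus markers, with permutation p of 0.573 or higher, and 0.315 (p = 0.19) for platelet markers. T and NK cell markers had an r of -0.115 (permutation p = 0.637), and cortical neuron markers of 0.181 (p = 0.462). Over the 17 lists, those other than neutrophils, B and plasma cells and monocytes had an adjusted p of 0.335 or higher for r, and rho between -0.181 and 0.225. On HFD in both sexes, 3 of 12 endothelial genes were higher and 1 lower, among them Tek, an angiopoietin receptor (0.19, SE 0.05, adjusted p = 0.131), and Ly6c1 (0.26, SE 0.08, adjusted p = 0.212). Of 7 choroid plexus genes tested 0 were higher and 2 lower, Prlr, the prolactin receptor, at -1.31 (SE 0.45, adjusted p = 0.24) and Otx2, a homeobox factor, at -0.87 (SE 0.38, adjusted p = 0.339). Without F1063, 4 choroid plexus genes and 0 endothelial genes were lower.

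Between the sexes, where no member passed the test, 3 of 18 red cell genes and 1 of 8 heme synthesis enzymes had an adjusted p under 0.05. Such differences were common, with 1670 of the 14834 genes tested passing, so the lists are not set apart by them. Fam46c was higher in females by 0.81 (SE 0.17, adjusted p = 0.00424), and Cpox, the coproporphyrinogen oxidase of heme synthesis, by 0.23 (SE 0.04, adjusted p = 0.00149). Aqp1, a water channel of red cells that the choroid plexus also makes, was lower in females, at -1.90 (SE 0.47, adjusted p = 0.0153), and Tspan33 at -0.27 (SE 0.08, adjusted p = 0.0322).

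The genes whose log2 CPM was most like that of Hba-a1 over the 19 mice, outside the members, were Hbb-b1 (r = 0.971), and then at a distance Itgb3 (0.769), the beta chain of a platelet integrin, Vav1 (0.738), a signalling protein of blood cells, Cd274 (0.722), an immune checkpoint ligand, and Tnfrsf1b (0.718), a tumour necrosis factor receptor. The gap between Hbb-b1 and the rest was wider than the differences among the other 4. By Spearman rho, Hbb-b1 kept rank 1 (0.949) while Itgb3, Vav1, Cd274 and Tnfrsf1b ranked 19, 29, 38 and 22. After the group means were removed, Hbb-b1 kept rank 1 (r = 0.964) and those 4 genes ranked 83, 112, 158 and 128. For Alas2 they were Hbb-b1 (0.858), Mmp16 (0.725), a membrane metalloproteinase, Tusc5 (0.698), Sptlc2 (0.698), a subunit of the enzyme that starts sphingolipid synthesis, and Frs2 (0.697), an adaptor of growth factor receptors. By rho they ranked 1, 2, 541, 23 and 16. After the group means were removed they ranked 10, 40, 104, 53 and 223, with r of 0.786 for Hbb-b1. These r values are descriptions over libraries that share diet, sex and depth.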

How the data were processed

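Cortex RNA of 19 mice was sequenced as mRNA libraries, and only samples with a RIN over the limit stated in the labels were used. Per the submitters' processing notes and the paper's methods, the authors aligned and counted reads with Subread (version 1.4.0) and featureCounts on mm9. The table deposited by the authors gives whole-number counts per gene and, beside them, RPM, the counts scaled to each library's total by the authors. Its 14996 genes hold about 99.2% of each library's reads. Strand, multi-mapping settings and read length are not given in the sources used here. All value columns belonged to the 19 samples, and groups were taken from the labels.

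The main test was edgeR's (4.0.16, under R 4.3.3) quasi-likelihood F test on counts (filterByExpr with a minimum count of 10 and a minimum total of 15, TMM scaling, robust dispersions with statmod 1.5.0), within females, within males, in both sexes with a term for sex, and with a diet by sex interaction. Benjamini-Hochberg adjustment ran over all genes tested, with a threshold of 0.05, and intervals of a log2 fold change are 1.96 SE wide on each side. Correlations were of log2 CPM (prior count 2), with 100000 permutations, two-sided. The labels do not say that mice of a group came from separate litters or cages, so p-values measure the spread between these mice. Scripts were tested on simulated data.

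The members and gene lists were chosen with earlier results of these data known. Every measured member is named, with at most the 2 genes of each list with the smallest p for diet in both sexes, any red cell or heme synthesis gene at an unadjusted p under 0.05, and the 5 genes most like Hba-a1 and like Alas2. Alternatives were DESeq2 1.42.0, limma-voom and limma 3.58.1 on log2 of RPM plus 1, other scalings and filters, a 4-group fit, no term for sex, and leaving out mice. Promoters are RefSeq's on GRCm38.p6 and transcripts GENCODE's. Protein sequences were not analysed here. Plots were made in Python 3.11.15 (matplotlib 3.10.9).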

Additional observations from a re-analysis of the deposited data

Results flagged for a closer look

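In groups of 4 to 6 mice, a highest or lowest value was marked when its gap to the nearest other mouse, relative to the range of the group, passed Dixon's 95% limit. Of 20 groups checked (4 members and Hbb-b1 in 4 groups), 8 had such a value. The limit is set for normally distributed values and was applied to RPM without a log. The share that chance would mark is therefore not known. The genes are not independent of each other, and the marked values belong to 3 mice. ND male F1080 was apart in its group for Hba-a1 (7.18 RPM, next 1.75), Hba-a2 (4.92 RPM, next 0.877), Hbb-bs (2.77 RPM, next 0.779) and Hbb-b1 (4.92 RPM, next 1.61). HFD male F1065 was apart for Hba-a1 (12.1 RPM, next 2.74), Hba-a2 (8.93 RPM, next 1.96) and Alas2 (3.01 RPM, next 0.882). HFD female F1063 was apart for Hba-a2 (24.3 RPM, next 7.88). Each marked value was the highest of its group.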

How the results depend on the processing

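The female and both-sex differences of the 4 members kept their sign and an unadjusted p under 0.05 under every alternative that gave a value, with adjusted p of 0.041 to 0.713 in females and 0.0371 to 0.345 in both sexes. DESeq2 alone brought adjusted p-values under 0.05 (Hba-a1, Hba-a2 and Hbb-bs in females, Alas2 in both sexes). On the log2 RPM plus 1 scale the differences in females were 2.04 for Hba-a1, 1.81 for Hba-a2, 1.76 for Hbb-bs and 1.08 for Alas2. The added 1 shrinks low values, but its share in these smaller differences was not tested. With each mouse left out in turn, the male log2 fold change ran from -0.67 to 1.55 for Hba-a1, from -0.32 to 2.37 for Hba-a2 and from -0.26 to 1.57 for Hbb-b1, negative without HFD male F1065 only. The interaction ran from 1.69 to 3.91 for Hba-a1, 0.76 to 3.45 for Hba-a2 and 1.63 to 3.83 for Hbb-bs, and 0 to 3 members passed an unadjusted p of 0.05 there. With DESeq2 the interaction of Hba-a1 was 2.68 with an unadjusted p under 0.05 (adjusted p = 0.996), so 1 member passed. Females over males ran from -0.11 to 1.16 for Hba-a2 and from -0.0115 to 0.89 for Hbb-b1, negative without HFD female F1063, and DESeq2 gave -0.11 for Hbb-bs. On deposited RPM, the r of Hba-a2 with Hbb-bs was 0.605 (permutation p = 0.0521) in place of 0.928. The weak relations of Hba-a1 with lists changed sign easily. On deposited RPM r was -0.152 for the red cell list and -0.320 for the erythroid factors. On deviations from the group means it was 0.212 for other globins, -0.261 for the erythroid factors and -0.194 for heme clearance. Leaving out each mouse, r ran from -0.051 to 0.368 for heme synthesis, -0.148 to 0.129 for mitochondrial import, -0.047 to 0.212 for the erythroid factors, -0.082 to 0.222 for heme clearance, -0.305 to 0.259 for endothelial, -0.421 to 0.302 for mural, -0.134 to 0.404 for choroid plexus and -0.136 to 0.079 for meningeal markers. The cause of these changes was not tested. DESeq2 gave no p for Hba-a1 in males, and Alas2 did not pass the filter on counts in females without ND female F1104 or in both sexes without a term for sex. No paired analysis was possible because the labels give the mice no replicate numbers shared between groups. Depth limits the ND libraries, where a member often had 5 reads or fewer and a single read is a large share of its level.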
